A study of Oryza sativa with 4 samples.

Results

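Broad OsLEC1 regions are the intervals of at least 1000 bp in the peak list of the OsLEC1-ChIP library. They were chosen by their width, which is a measured value of that library, and 1429 of the 27432 peaks on chromosomes 1 to 12 met this limit, or 5.21% (exact 95% interval 4.95 to 5.48%). The other 26003 peaks were narrower than 1000 bp and served for comparison. The peaks came from ChIP-seq of rice callus with an antibody against DDDDK, the epitope of the FLAG tag. Callus of 35S:3*FLAG-OsLEC1, in the Nipponbare background and from the line the study calls 2#, gave the groups OsLEC1-ChIP and OsLEC1-input, and callus of the untransformed Nipponbare wild type (NIP), which carries no tag, gave NIP-ChIP and NIP-input. Callus of both genotypes was induced from seeds on a medium with the auxin 2,4-D. Each of the 4 groups had 1 library, so no value below has a spread between replicates, and all intervals given cover counting error alone.

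OsLEC1 is the rice LEAFY COTYLEDON1 protein, an NF-YB subunit with a histone-fold domain. NF-YB proteins pair with an NF-YC subunit and then recruit an NF-YA subunit that reads the CCAAT sequence, and in Arabidopsis LEC1 is known as a central regulator of embryo development and seed maturation. In the line used here the tagged protein was driven by the 35S promoter, which is active in most plant cells, and 1 line was used, so the peaks describe an overexpressed protein in callus and not the native protein in the embryo. A peak interval is a stretch that the peak caller reported as enriched in ChIP fragments over the background. The list holds no gap below 242 bp between intervals, so shorter stretches under the caller's threshold may lie inside an interval. Each interval carries 1 listed summit, the base with the highest coverage, however wide it is. A broad interval may therefore hold further maxima, or short unenriched stretches, that the list does not show.

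Together the broad regions covered 1.90 Mb, which is 14.1% of the 13.4 Mb covered by all peaks on the chromosomes. Their median width was 1235 bp, and the middle of the distribution ran from 1095 bp (25th percentile) to 1456 bp (75th percentile). Most were not far above the limit, since 653 were under 1200 bp and 470 more were under 1500 bp. The remaining 306 reached 1500 bp or more, 66 reached 2000 bp, and the widest spanned 3391 bp. The narrower peaks had a median width of 396 bp.

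**Figure D1:**
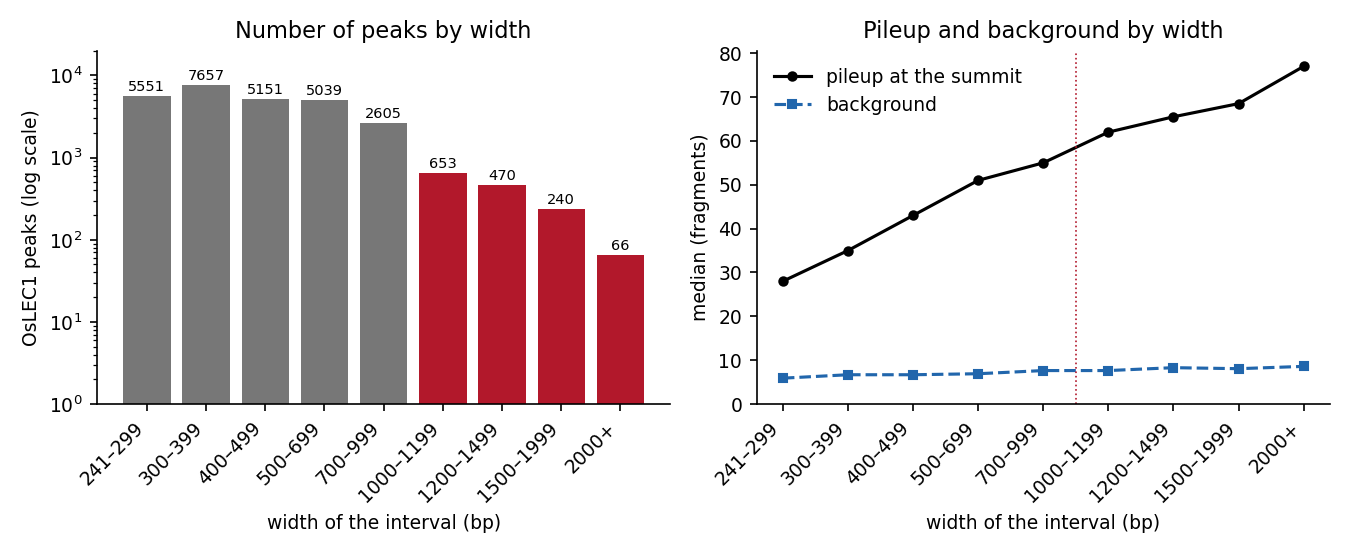
Number of OsLEC1 peaks (left, log scale) and median pileup and background at the summit in fragments (right) by width of the interval in bp, for 27432 peaks of 1 library. Red bars and the dotted line mark the limit of 1000 bp. The median pileup climbs from 28 fragments in the narrowest class to 77 at 2000 bp or more, while the median background stays between 5.90 and 8.59 fragments.

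Peak numbers changed little across the limit of 1000 bp. There were 266 peaks from 950 to 999 bp and 224 from 1000 to 1049 bp. The former had a median fold (enrichment over the background) of 7.14 and a median pileup (fragments at the summit) of 61, and the latter 6.92 and 58. The summit lay in the central part of the interval, from 33.3 to 66.7% of its width, in 38.3 and 32.6%, and another interval lay within 2 kb of 50.4 and 46.9%. Of the 7 peaks of exactly 1000 bp, the 3 with the highest fold lay on chromosome 3 and had pileups of 110, 65 and 77 fragments and folds of 11.6, 7.65 and 5.43. Just outside, the 3 peaks of 999 bp on chromosomes 7, 1 and 9 had pileups of 62, 27 and 61 fragments and folds of 5.03, 4.80 and 4.63. The medians of both 50 bp ranges were thus close, while the 3 named peaks inside the limit, picked by fold among ties, had higher folds than those outside.

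Broad regions were also the higher ones. The fold is the ratio written by the authors' peak caller, that is, the pileup (the ChIP fragments that cover the summit) over the local background, with 1 added to both. Its median was 7.38 in broad regions and 5.03 in narrower peaks. The median pileup was 65 fragments (5th to 95th percentile 34 to 141) against 38 (20 to 88). The median background was 8.06 fragments against 6.68. Of the broad regions, 1278 (89.4%) had a pileup above the median of all peaks, 39 fragments. These values come from the same peak calls as the width, so they describe the members and were not tested.

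The share of broad regions grew with the height of the summit. Of 7345 peaks with fewer than 30 fragments, 25 were broad (0.340%, exact 95% interval 0.220 to 0.502%). From 30 to 59 fragments, 3.87% were broad (3.57 to 4.20%), and from 60 to 99 fragments, 13.7% (12.7 to 14.8%). At 100 fragments or more, 245 of 1056 peaks were broad, or 23.2% (20.7 to 25.9%). Even among the highest summits, most intervals thus stayed below 1000 bp. Of the 100 peaks with the highest fold, 25 were broad.

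Width and height were also set side by side within the broad regions. Across the 1429 regions, the Spearman correlation of width was 0.152 with the pileup, 0.122 with the fold and 0.0205 with the background. These values are not comparable with those over all peaks, since the limit on width narrows its range. All these points share 1 ChIP library and its input, and whether a higher pileup lengthens an interval by itself was not tested. A −log10 q-value of 50 or more was found for 418 broad regions (29.3%), against 6.83% of narrower peaks. At the other end, 62 broad regions (4.34%) had a −log10 q-value under 10, against 31.4% of narrower peaks.

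The 5 broad regions with the highest fold were at most 1657 bp wide. The region chr5:28717310-28718593 (IRGSP-1.0 assembly, as are all positions here) was 1284 bp wide and had a fold of 38.1, from 219 fragments (95% Poisson interval 191 to 250) over a background of 4.77. On chromosome 1, the region chr1:30862243-30863565 had 187 fragments (161 to 216) over 4.21, a fold of 36.1. The region chr7:28926263-28927720 had 191 fragments (165 to 220) over 4.97, a fold of 32.1. The pileup intervals of these 3 regions overlap. A region with more fragments, chr1:17150895-17152119, had 271 (240 to 305) over a higher background of 7.63, which gave a fold of 31.5. The fifth was chr5:14663829-14665485, with 206 fragments (179 to 236) over 5.72 and a fold of 30.8. The last of these lay 82686 bp before the next peak, and chr1:17150895-17152119 lay 80061 bp after the previous one, so strong broad regions also occurred at the edge of long empty stretches.

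The weakest broad regions were narrow members of the group. The lowest fold, 2.17, belonged to chr2:31961132-31962233 (1102 bp), with 24 fragments (15.4 to 35.7) over a background of 10.5. It was followed by chr3:31597125-31598163 with 29 fragments (19.4 to 41.6) over 12.4, a fold of 2.24, and by chr7:28755225-28756281 with 34 fragments (23.5 to 47.5) over 14.3, a fold of 2.29. In each of these 3 regions the background was above 10 fragments, well above the median of 8.06. The 25 broad regions with fewer than 30 fragments had a median width of 1075 bp and −log10 q-values from 2.55 to 12.5.

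The 10 widest regions were located on chromosomes 1, 2, 3 and 4. The widest, chr4:19991295-19994685, spanned 3391 bp and had 91 fragments (95% Poisson interval 73.3 to 112) over a background of 9.54 at its summit. Its fold of 8.73 ranked 506th among the broad regions, and its summit lay 3006 bp from its start, at 88.6% of its width. Nearly as wide was chr1:1705299-1708686, with 3388 bp, 82 fragments (65.2 to 102) over 13.4 and a fold of 5.78. Here the summit lay 1401 bp from the start, at 41.4% of the width, the most central position among the 10. The third, chr2:31152661-31155655, spanned 2995 bp with 45 fragments (32.8 to 60.2) over 6.68, and its summit stood at 27.7% of the width. None of these 3 regions reached 100 fragments.

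The other 7 of these regions spanned 2616 to 2843 bp. Their pileups lay between 61 and 111 fragments and their folds between 6.56 and 13.3, so none approached the highest folds of the list. The region chr4:27540948-27543790 had its summit at 68.5% of its width, and chr2:32565997-32568626 at 67.3%. In chr3:31606023-31608796, chr4:23490376-23493085, chr1:6807432-6810124 and chr2:25153548-25156181 the summits stood at 22.9%, 39.2%, 13.9% and 36.8%. The least central of the 10 was chr1:29934968-29937583, with 99 fragments (80.5 to 121) and a summit 194 bp from its start, at 7.42% of 2616 bp. The summits of these 10 regions thus stood on both sides of the centre, and none at it.

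The summits of broad regions were less often central than those of all narrower peaks together, while peaks just under the limit, with 38.3%, were close to them. Peaks under 1000 bp had their summit near the centre, in the central part from 33.3 to 66.7% of the width in 76.1% (exact 95% interval 75.6 to 76.6%). Among broad regions this was so in 491 of 1429, or 34.4% (31.9 to 36.9%), against 73.9% of all peaks. The part before it held 492 broad summits (34.4%) and the part after it 446 (31.2%). The median position, counted from the start as a share of the width, was 0.491 in broad regions and 0.493 in narrower peaks. Broad summits leaned to neither end, with 50.9% before the centre (48.2 to 53.5%). Narrower peaks had 51.9% there (51.3 to 52.5%), a slight lean to the start. It was the distance from the centre that differed, with a median of 0.221 of the width against 0.0890.

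Broad summits were somewhat more frequent towards the flanks of the interval than in its centre. Each step of 10% between 10 and 90% of the width held from 9.38 to 16.8% of them. The stretches from 10 to 30% and from 70 to 90% of the width held 781 broad summits, or 54.7% (exact 95% interval 52.0 to 57.3%), against 16.5% of the narrower peaks. The stretch from 40 to 60% of the width, which is shorter than those stretches together, held 19.9% against 54.6%. Within 10% of either end there were 31 broad summits, or 2.17%. In base pairs, the broad summit lay a median of 346 bp from the nearer edge (25th to 75th percentile 246 to 474 bp), and the narrower peaks had a median of 155 bp.

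**Figure D2:**
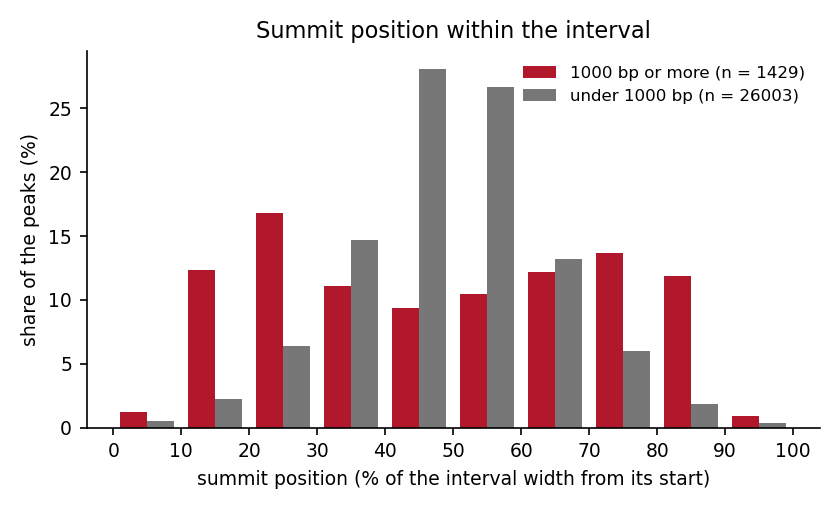
Position of the summit along the interval, as a percent of its width from the start, for 1429 OsLEC1 peaks of 1000 bp or more (red) and 26003 narrower peaks (grey). Bars give the share of each class in each step of 10%. Narrower peaks gather in the centre, with 28.1 and 26.6% in the steps on either side of it, while broad regions have 16.8% from 20 to 30%, 13.6% from 70 to 80% and 9.38% from 40 to 50% of the width.

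From 300 bp on, central summits became fewer with width. Intervals under 300 bp had a central summit in 84.3%. For intervals that began at 300, 400, 500 and 700 bp, each class ending where the next begins, the summit was central in 86.0, 79.2, 64.9 and 45.1%. For the broad classes that began at 1000, 1200, 1500 and 2000 bp, it was central in 35.2, 35.1, 32.1 and 28.8%. The intervals of these last 4 values overlap, so a further fall among broad regions was not resolved. The median distance to the nearer edge increased from 309 bp to 470.5 bp over the same 4 classes.

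Central summits were fewer in broad regions than in narrower peaks in each class of height. Among narrower peaks their share grew with height. Among broad regions it also rose from 30 fragments on, where the intervals of adjacent classes overlap but those of the lowest and highest do not. The class below 30 fragments held 25 broad regions, too few to place. From 30 to 59 fragments, the central part held 29.6% of broad summits (exact 95% interval 25.9 to 33.5%) and 79.5% of narrower ones (78.8 to 80.1%). From 60 to 99 fragments, the shares were 35.0% (31.2 to 39.0%) and 84.6% (83.4 to 85.7%). At 100 fragments or more they were 43.7% (37.4 to 50.1%) and 91.4% (89.2 to 93.2%). Below 30 fragments, 9 of 25 broad summits were central, or 36.0% (with an upper bound of 57.5%), against 63.6% of narrower ones (62.5 to 64.8%).

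The distribution of broad regions over the chromosomes was uneven. Chromosome 1 had 305, chromosome 3 had 279, chromosome 2 had 220 and chromosome 4 had 201, which makes 1005 of the 1429. As a share of the peaks of the chromosome, the highest value was 7.73% on chromosome 4 (exact 95% interval 6.73 to 8.82%), followed by 7.07% on chromosome 1 (6.32 to 7.88%), 6.88% on chromosome 3 (6.12 to 7.71%) and 6.51% on chromosome 2 (5.70 to 7.40%). The intervals of these 4 overlap.

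The other 8 chromosomes had lower shares. Chromosome 9 had 4.48% (exact 95% interval 3.50 to 5.65%, 68 regions), chromosome 5 had 4.33% (3.53 to 5.26%, 98 regions) and chromosome 7 had 3.92% (3.10 to 4.89%, 75 regions). Chromosomes 10, 8 and 6 had 2.93, 2.91 and 2.62%, with 38, 49 and 56 regions. The lowest shares were found on chromosome 12, with 19 regions and 1.81% (1.10 to 2.82%), and chromosome 11, with 21 regions and 1.71% (1.06 to 2.60%). The interval of each of chromosomes 5 to 12 lay below that of each of chromosomes 1 to 4. Neighbours in the order within chromosomes 5 to 12 were not resolved.

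**Figure D3:**
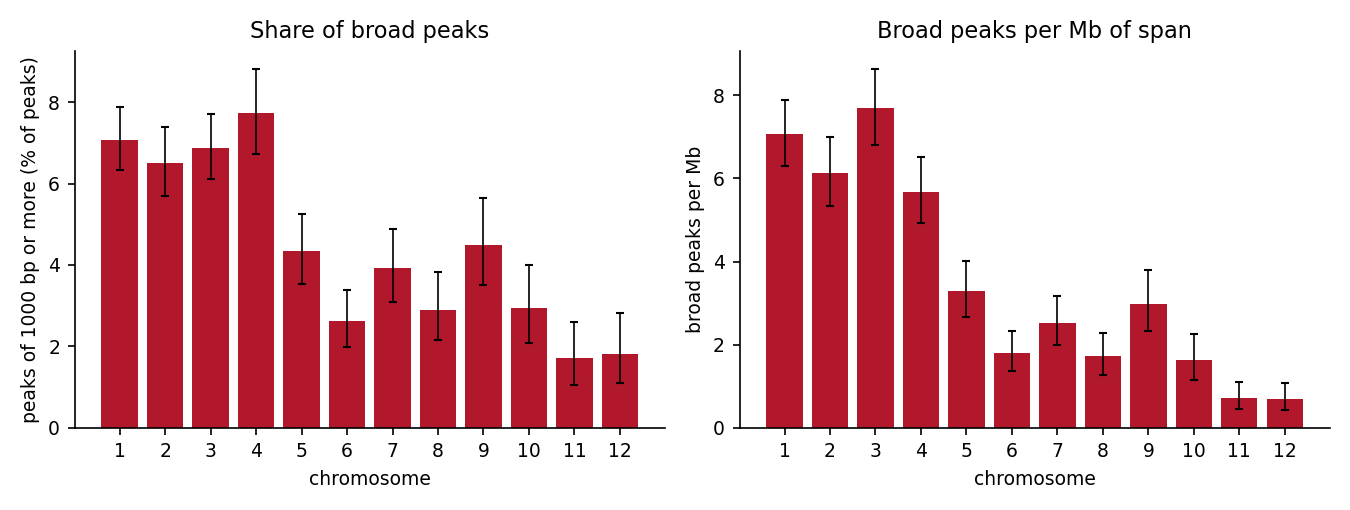
Broad OsLEC1 regions by chromosome, as a percent of the peaks of the chromosome (left, error bars exact 95% binomial intervals) and per Mb between its first and last peak (right, error bars exact 95% Poisson intervals). Chromosomes 1 to 4 lie at 6.51 to 7.73% and 5.68 to 7.68 per Mb, and chromosomes 5 to 12 at 1.71 to 4.48% and 0.694 to 3.29 per Mb.

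Counted per Mb of span, broad regions were most frequent on chromosome 3 with 7.68 (95% Poisson interval 6.81 to 8.64) and least frequent on chromosome 12 with 0.694. Chromosome 11 had 0.728 (0.451 to 1.11). A Poisson interval takes the variance as equal to the mean, but across 1 Mb bins it was 7.16 times the mean. These intervals may thus be too narrow to compare chromosomes. The order at the top differed from that by share, since chromosome 4 was at 5.68 per Mb (4.92 to 6.52), below chromosomes 3, 1 and 2. The widths of broad regions differed little between chromosomes, with medians from 1201.5 to 1283 bp on chromosomes 1 to 10. On chromosomes 11 and 12, with 21 and 19 regions, the medians were 1095 and 1094 bp.

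The step between chromosomes 4 and 5 was seen after the values were known, and the peaks were then grouped at it as a description. Chromosomes 1 to 4 had 1005 broad regions among 14346 peaks (7.01%, exact 95% interval 6.59 to 7.44%), and chromosomes 5 to 12 had 424 among 13086 (3.24%, 2.94 to 3.56%). The pileup moved in the same direction, with medians of 39 or 40 fragments on chromosomes 1 to 4 and 34 to 39 on the others. At summits of 60 to 99 fragments, broad shares were 17.4% (16.0 to 19.0%) and 8.61% (7.36 to 9.99%). From 30 to 59 fragments they were 5.14% (4.66 to 5.66%) and 2.45%, and at 100 fragments or more 27.4% (23.8 to 31.2%) and 18% (14.6 to 21.8%). The pooled broad share was thus lower on chromosomes 5 to 12 in each class of 30 fragments or more. Single chromosomes did not all follow. At 100 fragments or more, chromosome 3 had 19.5% (13.9 to 26.2%), below chromosomes 5, 9 and 10, whose intervals overlap it. Chromosomes 1, 2 and 4 lay above each of chromosomes 5 to 12. At 60 to 99 fragments, chromosome 7 had 13.4% (9.55 to 18.0%), which overlapped each of chromosomes 1 to 4.

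Widths over all peaks shifted too. The median width of all peaks was 421 to 431 bp on chromosomes 1 to 4, 384 to 407 bp on chromosomes 5 to 10, 367 bp on chromosome 11 and 372 bp on chromosome 12. These medians include the broad regions. Peaks from 700 bp up to the limit made up 10.4 to 11.6% on chromosomes 1 to 4 and 5.87 to 9.49% on the others. Just below the limit, the share of peaks thus differed between these groups of chromosomes in the same direction as the broad share.

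Broad regions gathered where OsLEC1 peaks were dense. The chromosomes held 366 complete 1 Mb bins, counted from the first base. Among the 106 bins with over 100 peaks, 1083 of 14086 peaks were broad, or 7.69% (exact 95% interval 7.25 to 8.14%). Bins with 51 to 100 peaks had 2.94% (2.58 to 3.33%), those with 26 to 50 peaks 1.95% (1.53 to 2.45%), and those with up to 25 peaks 1.61% (0.906 to 2.65%), with 15 broad regions. The share in the sparsest bins was not resolved from those in bins with 26 to 50 or 51 to 100 peaks. Of the 15 broad regions in the sparsest bins, 5 lay in 1 bin of 22 peaks (22.7%), on chromosome 1 from 16000001 to 17000000. Across the 366 bins, the Spearman correlation of the number of peaks with the broad share was 0.647, where all bins share 1 library and neighbouring bins are not independent.

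Broad regions were unevenly spread over the bins. The median bin had 1.5, 109 bins had none, and the variance across bins was 7.16 times the mean of 3.85. The 56 bins with 10 or more held 814 broad regions, or 57.0%, and 8002 of all peaks, or 29.2%. They were picked by their number of broad regions, so the first share is a description. The most, 29 of 176 peaks (16.5%), were found on chromosome 2 from 31000001 to 32000000. This bin also holds the third widest region of the list and the region with the lowest fold. It was followed by 26 of 163 peaks on chromosome 4 from 27000001 to 28000000, where the fourth widest region lies, and 22 of 152 on chromosome 1 from 36000001 to 37000000. Bins with 20 broad regions each were found on chromosome 2 from 27000001 to 28000000 and on chromosome 3 from 11000001 to 12000000.

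Peak height and peak density moved together, since the median pileup of all peaks was 41 fragments in the densest bins and 34 in the sparsest. At summits of 60 to 99 fragments, the broad share was still 18.6% (exact 95% interval 17.1 to 20.1%) in bins with over 100 peaks, 7.98% (6.47 to 9.70%) with 51 to 100 peaks and 3.92% with 26 to 50 peaks. From 30 to 59 fragments, it was 5.45% (4.95 to 5.98%) in the densest bins and 1.70 to 2.19% in the other 3 classes. At 100 fragments or more, it was 28.6% (25.1 to 32.4%) in the densest bins, 15.3% with 51 to 100 peaks and 14.2% (8.14 to 22.3%) with 26 to 50 peaks. In the sparsest bins only 20 peaks reached this height and 4 of them were broad, too few to place. In each class of 30 fragments or more, broad regions were thus more frequent in the densest bins than in bins with 26 to 100 peaks.

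**Figure D4:**
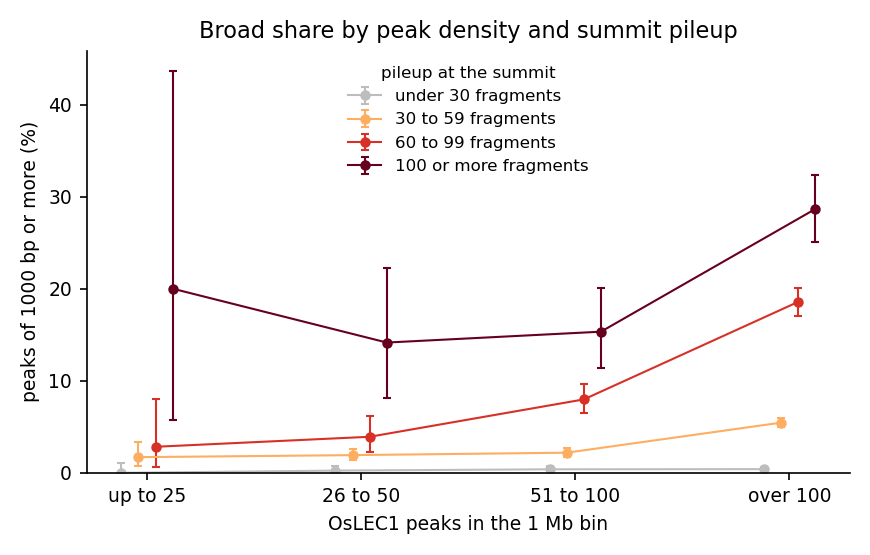
Share of OsLEC1 peaks of 1000 bp or more in percent (y axis) by the number of OsLEC1 peaks in the 1 Mb bin (x axis), with 1 line for each class of pileup at the summit and exact 95% binomial intervals as error bars. In each of the 3 classes of 30 fragments or more, bins with over 100 peaks lie above those with 51 to 100 peaks, for example 18.6 against 7.98% at 60 to 99 fragments.

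The contrast between the chromosomes was also seen within dense bins. In bins with over 100 peaks, 8.66% of the peaks on chromosomes 1 to 4 were broad (exact 95% interval 8.11 to 9.23%) and 5.40% on chromosomes 5 to 10 (4.74 to 6.13%), while chromosomes 11 and 12 had no such bin. Single chromosomes in these bins ranged from 9.75% on chromosome 4 (8.45 to 11.2%) to 3.17% on chromosome 6 (1.89 to 4.96%). Chromosome 7, with 7.89% (5.89 to 10.3%), overlapped each of chromosomes 1 to 4, and chromosome 9, with 6.21% (4.61 to 8.15%), overlapped chromosomes 1, 2 and 3. At 60 to 99 fragments in these bins, the shares were 20.9% (19.0 to 22.8%) on chromosomes 1 to 4 and 12.7% (10.4 to 15.3%) on chromosomes 5 to 10. From 30 to 59 fragments they were 6.27% (5.64 to 6.95%) and 3.48% (2.77 to 4.32%). At 100 fragments or more they were 29.1% (24.8 to 33.6%) and 27.7% (21.5 to 34.5%), a difference within counting error. Below 30 fragments the intervals also overlapped.

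Along the chromosomes, broad regions were most frequent in the last part, which also held the most peaks. Shares by position were not compared within classes of peak density, so position and density cannot be told apart here. When the span of each chromosome was divided into 3 equal parts, 841 of 13344 peaks in the last part were broad (6.30%, exact 95% interval 5.90 to 6.73%), against 319 of 7818 in the first (4.08%, 3.65 to 4.54%) and 269 of 6270 in the middle (4.29%, 3.80 to 4.82%). The last part had the highest broad share on 10 of the 12 chromosomes, and the first part had the lowest on 8. Chromosome 3 went the other way, with 179 of 1875 in its first part (9.55%), 17 of 739 in the middle and 83 of 1440 in the last, or 5.76% (4.62 to 7.10%). On chromosome 12, the first, middle and last part had 8 of 393, 5 of 243 and 6 of 411. These are 2.04, 2.06 and 1.46%, with intervals that overlap.

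Few broad regions were found in the first part of several chromosomes, with the lowest shares on chromosomes 9 and 4. Chromosome 11 had 3 of 459 there (0.654%, exact 95% interval 0.135 to 1.90%). Chromosomes 7, 8 and 5 had 1.01, 1.37 and 1.52%. The intervals of chromosomes 11, 7, 8 and 5 overlap that of chromosome 4. On chromosome 4, 1 of 257 peaks was broad in the first part (0.389%, exact 95% interval 0.00985 to 2.15%). There were 47 of 721 in the middle (6.52%, 4.83 to 8.57%) and 153 of 1623 in the last (9.43%, 8.05 to 11.0%), intervals that overlap. On chromosome 9, 0 of 190 peaks in the first part were broad (exact 95% interval up to 1.92%), and 52 of 917 were broad in the last (5.67%, 4.26 to 7.37%). On chromosome 2, the share went from 2.32% over 5.38% (3.97 to 7.11%) to 9.09% (7.77 to 10.6%).

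Broad regions more often had a close neighbour than all narrower peaks together. The distance was taken from edge to edge, because a wide interval keeps other summits away by its own width. Another interval lay within 2 kb of 801 broad regions, or 56.1% (exact 95% interval 53.4 to 58.6%), against 39.4% of narrower peaks (38.8 to 40.0%) and 40.3% of all peaks. The share grew with width below the limit too, from 35.7% in the narrowest class to 49.8% in peaks from 700 bp up to the limit, and it was 55.0% in broad regions under 1200 bp. The median gap to the nearest interval was 1680 bp in broad regions and 3022 bp in narrower peaks. Within 500 bp, there was an interval for 226 broad regions (15.8%, 14.0 to 17.8%) and for 9.83% of narrower peaks (9.47 to 10.2%). Intervals within 2 kb on both sides were found for 185 broad regions (12.9%, 11.2 to 14.8%) and 6.60% of narrower peaks (6.30 to 6.91%).

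Isolation was rare. Only 18 broad regions had no other interval within 20 kb on either side, or 1.26% (exact 95% interval 0.748 to 1.98%), against 1410 narrower peaks (5.42%, 5.15 to 5.70%). When the distance was taken from summit to summit, 35.0% of broad regions (32.5 to 37.5%) and 32.1% of narrower peaks (31.5 to 32.7%) had a neighbour within 2 kb, intervals that overlap. Chains of at least 3 summits, each within 2 kb of the next, held 179 broad regions (12.5%, 10.9 to 14.4%) and 9.86% of narrower peaks (9.50 to 10.2%). The contrast in close neighbours was thus smaller between summits than between edges.

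Broad regions lay in denser bins, and neighbours were therefore also compared within classes of density. In bins with over 100 peaks, 59.9% of broad regions (exact 95% interval 56.9 to 62.9%) and 49.0% of narrower peaks (48.2 to 49.9%) had an interval within 2 kb. In bins with 51 to 100 peaks, the shares were 49.0% (42.5 to 55.5%) and 33.7% (32.7 to 34.8%), and in bins with 26 to 50 peaks 36.1% (25.1 to 48.3%) and 23.3% (21.9 to 24.7%). In the sparsest bins, 2 broad regions out of 15 had such a neighbour (13.3%, 1.66 to 40.5%), against 20.7% of narrower peaks (18.1 to 23.5%), and no difference was resolved.

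**Figure D5:**
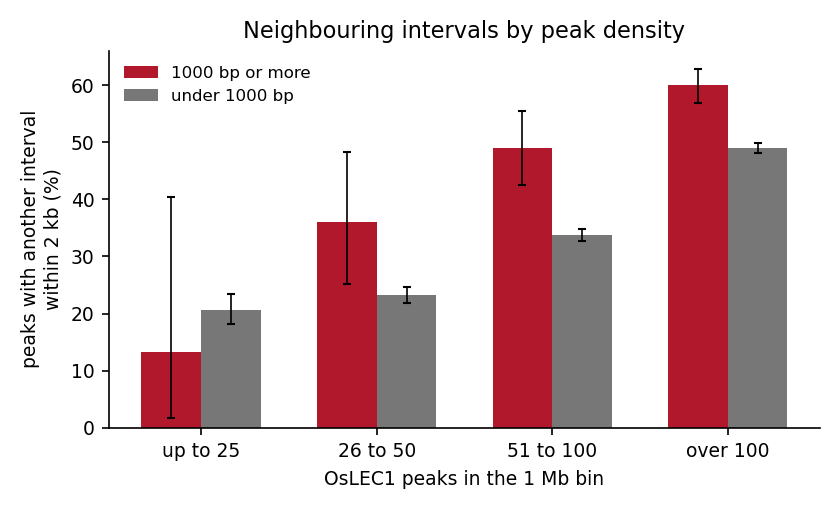
Share of OsLEC1 peaks with another interval within 2 kb, edge to edge, in percent, by the number of peaks in the 1 Mb bin, for broad regions (red) and narrower peaks (grey). Error bars are exact 95% binomial intervals. Broad regions lie higher in the 3 denser classes, for example 59.9 against 49.0% in bins with over 100 peaks, and the sparsest class holds only 15 broad regions.

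The nearest interval of a broad region was mostly a narrower peak. Its median width was 453 bp and its median pileup 42 fragments, against 408 bp and 39 fragments in all peaks. Of the 1429 broad regions, 1090 (76.3%) had more fragments at the summit than their nearest neighbour. Broad regions were the higher peaks in any case, and this share was not counted for narrower peaks. In 118 cases (8.26%) the nearest interval was broad as well, while 5.21% of all peaks were broad. Counted along the chromosome, the next interval was broad after 121 of 1428 broad regions (8.47%, exact 95% interval 7.08 to 10.0%) and after 5.03% of narrower peaks (4.77 to 5.30%). Within bins of over 100 peaks these shares were 9.60% (7.91 to 11.5%) and 7.51% (7.07 to 7.98%), intervals that overlap.

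Broad regions in a row were few. Of the 1429, 1203 had a narrower peak or a chromosome end on both sides, 92 runs held 2 broad regions, 11 runs held 3, and 1 run each held 4 and 5. The run of 5 on chromosome 1, from 1740673 to 1752072, covered 6582 bp of 11400 bp, with no gap above 2017 bp. The run of 4 on chromosome 4, from 30934112 to 30943547, covered 5718 bp of 9436 bp. The 121 adjacent pairs of broad regions were a median of 2312 bp apart, and 52 of them were within 2 kb.

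The closest pair lay on chromosome 3, with a gap of 244 bp. The first region, chr3:7026336-7027355, had 32 fragments (95% Poisson interval 21.9 to 45.2) over 8.98 and its summit 92 bp before its end. The second, chr3:7027600-7028634, had 52 fragments (38.8 to 68.2) over 7.63 and its summit 714 bp from its start. The smallest gap between any intervals of the list was 242 bp, so this pair lay almost as close as the list allows.

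The summit of a broad region did not lean towards its neighbour. It lay on the side of the nearer interval in 704 of 1426 broad regions, or 49.4% (exact 95% interval 46.7 to 52.0%). Among the 801 with an interval within 2 kb, it did so in 396 (49.4%, 45.9 to 53.0%). The narrower peaks with such a neighbour had 51.4% (50.4 to 52.4%). The position of the neighbour and the side of the summit were thus not related in broad regions beyond counting error.

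No OsLEC1 peak on the chromosomes, broad or narrower, overlapped a peak of the wild type (0 of 27432, 0.0%), so the count of 0 is not a result about broad regions. The NIP-ChIP list held 2 peaks, both on chromosome 11 and both under the limit, with widths of 940 and 768 bp. The nearest broad OsLEC1 region was 2019 kb from the first and 2157 kb from the second, and 0 lay within 10 kb of either. The depth of NIP-ChIP is not fixed by its list, so the number of broad regions that the wild type would show at equal depth was not tested. Genes, promoters and sequence words at the broad regions were not analysed here, because no genome or annotation of the IRGSP-1.0 assembly was used.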

How the data were processed

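The peak lists of OsLEC1-ChIP and NIP-ChIP were used, and the inputs entered through the peak calls alone. The methods state alignment to IRGSP-1.0, a filter for unique alignments, and calls against the input at a q-value of 0.01. They also name a filter on replicates, although each group has 1 library. The submitters' processing notes give Bowtie2 2.3.4.1 and MACS2 2.1.2. The authors deposited the fold as a ratio, −log10 p-values and −log10 q-values at the summit, and a score derived from the −log10 q-value.

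Pileup and background were solved from the fold and the −log10 p-value through a Poisson tail. Of the OsLEC1 peaks, 100% gave a whole pileup that returned the −log10 p-value within 0.001, as did 100% of 1928 simulated peaks. The lowest background in the OsLEC1-ChIP list was 3.49 fragments, and library totals were not used here. Width was end minus start, and starts are given 1-based. Intervals are exact (Clopper-Pearson for shares, Poisson for pileups and counts per Mb, 95%). They treat peaks and fragments as independent, which PCR copies and clustered peaks are not. Spans run from the first to the last peak of a chromosome.

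The width limit, lists and comparisons were chosen with earlier results of these data known. Named were the 10 widest regions, the 5 highest and 3 lowest by fold, 3 peaks on each side of the limit (ties by fold), the most and least central of the widest, and the closest broad pair. Long runs and dense bins were chosen after their values were seen. Python 3.11.15, pandas 2.3.3, numpy 2.4.6, scipy 1.17.1 and matplotlib 3.10.9 were used. Other width limits, −log10 q-values, distances and joined intervals were tried.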

Additional observations from a re-analysis of the deposited data

Results flagged for a closer look

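Outside the 12 chromosomes, OsLEC1-ChIP had 20 peaks on 9 unplaced sequences, while NIP-ChIP had 0 there. They were set aside in the comparisons above. None of the 20 reached 1000 bp, and the widest had 705 bp.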

How the results depend on the processing

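The joining of intervals with gaps up to 500 bp and the grouping at chromosome 4 were chosen after the data were seen. Joining gaps no longer than the narrowest interval changed nothing, as the smallest gap was 242 bp. With joining up to 500 bp, 2394 regions were broad (9.21%), 23.4% had a central summit (narrower intervals 76.0%) and 45.7% a neighbour within 2 kb (narrower 32.8%), where joining itself removes the closest neighbours.

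Stricter −log10 q-values removed few broad regions (1421 left at 5 or more, 1367 at 10 or more) and more of the others, so the broad share went to 5.55 and 7.12%. At 10 or more, 44.5% had a neighbour within 2 kb (narrower peaks 30.5%) and chromosome 4 had a broad share of 10.6%. The lowest share was then 2.33% on chromosome 12, in place of chromosome 11 with 2.54%. At this limit the summit was central in 34.5% of broad regions and 82.0% of narrower peaks.

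Width limits of 800, 1200 and 1500 bp gave 2799, 776 and 306 regions, which are 10.2, 2.83 and 1.12% of the peaks. In this order, the median fold was 7.09, 7.60 and 8.00, the median pileup 61, 68.5 and 71 fragments, and the median distance of the summit from the centre 0.208, 0.236 and 0.261 of the width. Central summits were found in 37.3% at 800 bp and 31.4% at 1500 bp, and neighbours within 2 kb in 53.2 and 60.5%. At the 3 limits, broad regions had fewer central summits and more close neighbours than narrower peaks.

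A neighbour within 5 kb was found for 82.9% of broad regions, and within 2 kb between summits for 35.0%. Per Mb, the extremes were chromosome 3 (7.68) and chromosome 12 (0.694). No paired analysis was possible because the design has a single library for every group, and no replicate could be left out in turn. Alternatives for start sites, the G-box and CCAAT were not run, as no genome or annotation of the assembly was used. How depth would change the number of broad regions was not tested.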
